A study of Mus musculus with 8 samples.

Results

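The 10 CC chemokine genes Ccl2, Ccl3, Ccl4, Ccl5, Ccl6, Ccl7, Ccl8, Ccl9, Ccl12 and Ccl24 were read in blood-derived myeloid cells that had been sorted from ischemic mouse brain. They were taken as every gene probe, control spots left out, whose RefSeq accession belongs to 1 of these genes, which gave 10 of the 60273 probes on the array, a single probe per gene. All 10 were among the 42436 genes that passed the filter on low signal and were tested. The samples were 4 labelled Psgl1-/- (replicates 5 to 8) and 4 labelled Psgl1+/+ (replicates 1 to 4). Psgl1 is another name for Selplg, which encodes the selectin ligand PSGL-1, on which leukocytes roll along the vessel wall. In the Psgl1-/- group, bone marrow of Selplg-KO donors that carried the red fluorescent protein DsRed had been transplanted into wild-type hosts, and in the Psgl1+/+ group the marrow came from Selplg-WT DsRed donors. All hosts underwent 30 min of middle cerebral artery occlusion with reperfusion, and tissue was taken 7 days later. Live donor cells were sorted as DsRed+ CD11b+ CD45hi cells that lacked Ly6G, which marks neutrophils, and CD3, which marks T cells, so the genotype is that of blood-derived cells, and host cells, including resident microglia, keep wild-type Psgl1. The labels do not say how many animals gave a sample, so every p-value reflects the spread among these 8 samples alone, and that spread may be technical.

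CC chemokines are small secreted proteins with a pair of adjacent cysteines near the amino terminus. They bind G protein-coupled receptors on leukocytes and direct their movement out of the blood and within tissue. In the injured brain, microglia, macrophages, astrocytes and endothelium are known sources, and the axis of Ccl2 and its receptor Ccr2 is known for the entry of Ly6C-high monocytes.

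The probe decides what each value reads, so the probes of the genes on which the results turn are shown. The Ccl24 probe belongs to the only member whose groups did not overlap, the Ccl12 probe to the member with the most negative difference, and the Ccl2 and Ccl5 probes to genes with a wide spread between arrays. Sequences are the designed probes of the array, in transcript sense from 5′ to 3′. Of the Ccl2 and Ccl5 probes the first 30 bases are given.
Ccl24: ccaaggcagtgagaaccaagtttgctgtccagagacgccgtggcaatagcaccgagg
Ccl12: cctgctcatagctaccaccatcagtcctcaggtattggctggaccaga
Ccl2: aaggtgtggatccatttttccctctctgtg
Ccl5: ctctagtcctagccagcttggggatgccac
The 10 probes were 45 to 57 bases long, and the longest run of bases shared by any 2 of them was 9, between Ccl8 and Ccl9. The Ccl8 and Ccl9 probes also held the letters AATAAA, the usual signal for cleavage and polyadenylation of an mRNA, in capitals in these 30-base windows.
Ccl8: tgtctgttatatgaacaactgaAATAAAag
Ccl9: ggatgaAATAAAttctgccttagcccagta
Only the transcript strand was searched and no other motif, and 6.38% of all probes on the array hold these letters. The files list no genome position for the probes. In the reference assembly GRCm38.p6, Ccl24 lies on chromosome 5 and the other members on chromosome 11.

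No CC chemokine passed the test of a difference between Psgl1-/- and Psgl1+/+ cells. With limma and Benjamini-Hochberg adjustment over all 42436 tested genes, 0 of 10 members passed 0.05, with adjusted p from 0.458 to 0.95, while 1 gene (0.00236%) passed over the whole array. At an unadjusted p under 0.05, 1 member (Ccl24, the ligand of the eosinophil receptor Ccr3) was lower in Psgl1-/- cells and 0 were higher. Of all tested genes, 10.8% lay under that p in either direction and 9.2% lay under it and lower in Psgl1-/- cells. The estimated difference, Psgl1-/- minus Psgl1+/+, was positive for 4 members and negative for 6, with a median of -0.48 on the log2 scale. The median over all tested genes was -0.33 and 31.0% of them were positive, so the members' count is to be read against a whole array that leaned the same way. That lean depends on the scaling, and the median of all genes was -0.17 with quantile normalization and -0.01 with cyclic loess.

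Values are given below as the processed signal of the scanner software, a brightness on a linear scale. Means and differences are on the scaled log2 signal, the log2 of the processed signal after each array was set to a common 75th percentile. That percentile was 833.3 to 958.8 on Psgl1-/- arrays, against 525.8 to 748.6 on Psgl1+/+ arrays, so a like processed signal is a lower scaled signal on a Psgl1-/- array. Of all gene spots, 76.2 to 88.2% were well above background on Psgl1-/- arrays, against 76.1 to 86.8% on Psgl1+/+ arrays. Slide row 1 held replicates 6, 8, 2 and 4 and slide row 2 held replicates 5, 7, 1 and 3. Slide columns 3 and 4 held Psgl1-/- arrays and columns 1 and 2 Psgl1+/+ arrays, so column and group cannot be told apart. Of the members, 9 were well above background on all 8 arrays. Ccl9 was not on Psgl1-/- replicate 7. In pooled RNA of sorted cells, fewer cells that express a gene and less RNA per cell cannot be told apart.

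The targeted gene Selplg was detected above background by its probe on each of the 8 arrays, with a processed signal of 11180, 12960, 10160 and 9636 in Psgl1-/- replicates 5 to 8, against 13080, 6539, 6938 and 38320 in Psgl1+/+ replicates 1 to 4. The groups overlapped, and the difference was -0.63 on the log2 scale (SE 0.64, limma adjusted p = 0.684). The labels do not say which stretch of the gene is deleted, so its probe does not check the labels, and groups are named by their labels throughout.

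**Figure D1:**
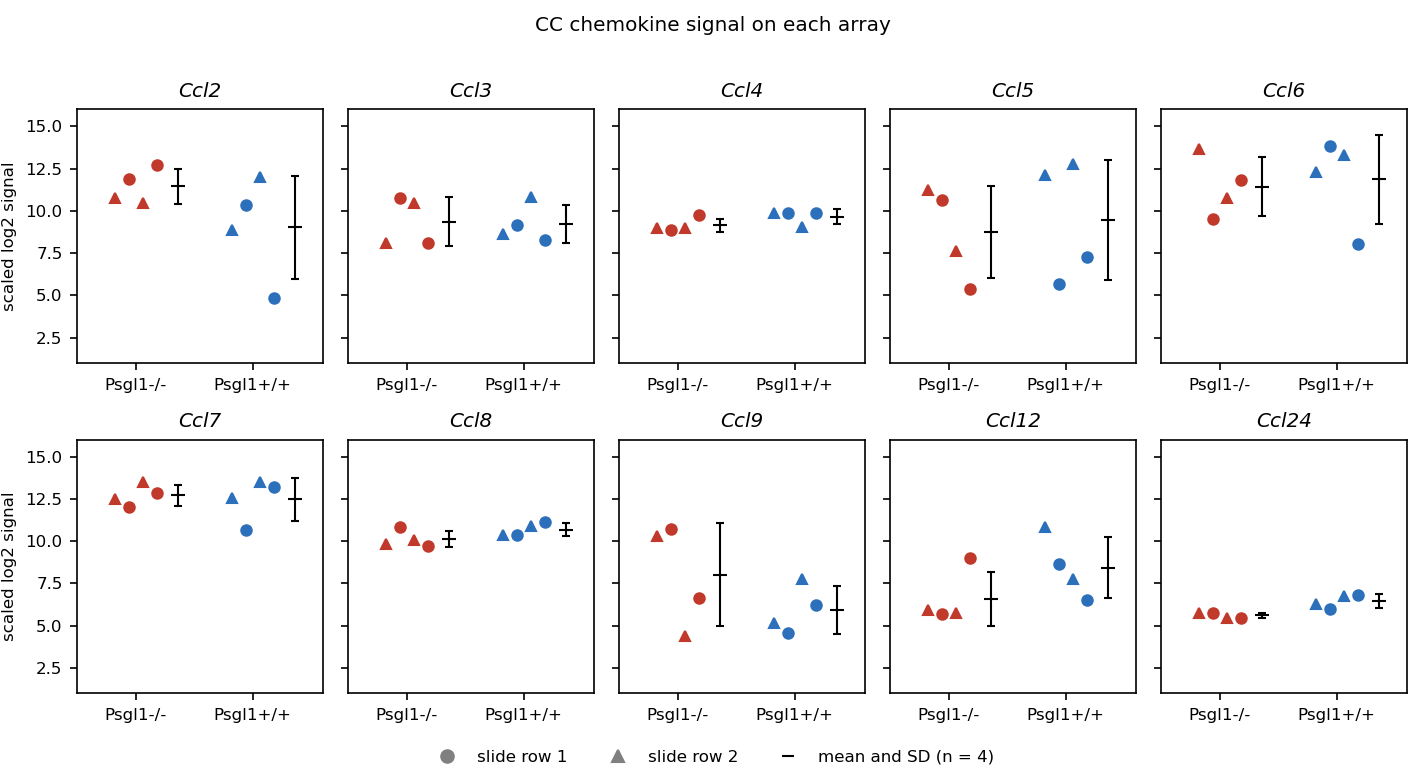
Scaled log2 signal of the 10 CC chemokines on each array (vertical axis), with Psgl1-/- replicates 5 to 8 in red and Psgl1+/+ replicates 1 to 4 in blue, in order of replicate number. Circles are slide row 1, triangles slide row 2, and the bar gives the mean and SD of 4 arrays. Ccl24 separates the groups, while Ccl2, Ccl5, Ccl6, Ccl9 and Ccl12 spread widely within a group.

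Among the monocyte chemoattractants, Ccl2 is the main ligand of Ccr2 and draws inflammatory monocytes. It had a processed signal of 2016, 4338, 1581 and 8541 in Psgl1-/- replicates 5 to 8, against 437.5, 1292, 3352 and 20.22 in Psgl1+/+ replicates 1 to 4. Psgl1+/+ replicate 4 was the lowest of all, Psgl1+/+ replicate 3 lay inside the range of the Psgl1-/- arrays, and the groups overlapped. The scaled log2 mean was 11.46 ± 1.02 in Psgl1-/- cells and 9.02 ± 3.06 in Psgl1+/+ cells (SD, n = 4 each), a difference of 2.44 (SE 1.44, 95% confidence interval -0.91 to 5.79, limma adjusted p = 0.503). A single array decides much of that value, since the difference was 1.05 without Psgl1+/+ replicate 4. Without Psgl1+/+ replicate 3 it was 3.43 and the groups no longer overlapped, with Psgl1-/- cells higher. Of all tested genes, 17.5% had no overlap without that array, and most of these were lower in Psgl1-/- cells (16.1% of all tested genes). Within slide row 1 it was 4.69 and within slide row 2 it was 0.18.

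Ccl7, a second Ccr2 ligand that also binds other CC receptors, behaved more evenly. Its processed signal was 6720, 4879, 12890 and 9274 in Psgl1-/- cells, against 5612, 1595, 9394 and 6512 in Psgl1+/+ cells. Psgl1+/+ replicate 2 was the low array, and the groups overlapped. The difference was 0.25 (SE 0.66, interval -1.28 to 1.78, limma adjusted p = 0.885). It was 0.52 within slide row 1 and -0.02 within slide row 2.

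Ccl12, a mouse chemoattractant of the same Ccr2 group, was the member with the most negative difference. The processed signal was 69.85, 60.01, 59.33 and 645.8 in Psgl1-/- replicates 5 to 8, against 1669, 402.8, 175.8 and 64.28 in Psgl1+/+ replicates 1 to 4. Psgl1-/- replicates 5 to 7 lay close together and low, replicate 8 stood apart from them, and Psgl1+/+ replicate 4 came down close to the low Psgl1-/- arrays. The scaled log2 mean was 6.58 ± 1.6 in Psgl1-/- cells and 8.44 ± 1.82 in Psgl1+/+ cells, and the difference of -1.85 (SE 1.09, interval -4.38 to 0.68) had a limma adjusted p of 0.502. Without Psgl1+/+ replicate 1 the difference was -1.06. Without Psgl1-/- replicate 8 the groups no longer overlapped, as for 14.5% of all tested genes, and the difference was -2.65 (limma adjusted p = 0.638). It was -0.25 within slide row 1 and -3.45 within slide row 2.

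Ccl8, which in the mouse acts through Ccr8, varied little. It measured 1068, 2091, 1183 and 1084 in processed signal in Psgl1-/- cells, against 1195, 1328, 1565 and 1556 in Psgl1+/+ cells. Psgl1-/- replicate 6 was the high array of its group, and the groups did not overlap without it, as for 18.5% of all tested genes. The scaled log2 difference was -0.57 (SE 0.34, interval -1.36 to 0.22, limma adjusted p = 0.504), and it was -0.47 and -0.66 within slide rows 1 and 2.

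Among the macrophage inflammatory chemokines, Ccl3, a ligand of Ccr1, is an inflammatory chemokine of activated macrophages and microglia. It had a processed signal of 316.6, 2059, 1571 and 354.4 in Psgl1-/- cells, against 366.2, 572.1, 1494 and 215.1 in Psgl1+/+ cells. Psgl1-/- replicates 6 and 7 and Psgl1+/+ replicate 3 were high and the others low, so each group held both kinds. The difference was 0.15 (SE 0.84, interval -1.81 to 2.11, limma adjusted p = 0.95), and its sign was not the same within slide row 1 (0.74) and slide row 2 (-0.45).

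Ccl4 is a chemoattractant often made together with Ccl3. Its processed signal was 572.6, 539.1, 559.8 and 1099 in Psgl1-/- cells, against 865.3, 946.9, 429.4 and 658.8 in Psgl1+/+ cells. After scaling, Psgl1-/- replicates 5 to 7 lay at 8.86 to 8.98 and replicate 8 at 9.75, while Psgl1+/+ replicates 1, 2 and 4 lay at 9.87 to 9.89 and replicate 3 at 9.04. Thus 1 array of each group stood near the other group, which made the overlap, and leaving out either of these arrays removed it. Of all tested genes, 14.5% had no overlap without Psgl1-/- replicate 8 and 17.5% without Psgl1+/+ replicate 3. Here, as for Ccl2, Ccl12 and Ccl8 above, the array was picked because it made the member's overlap. The shares are for that same array over all genes, so they are not matched to such a choice. The difference was -0.53 (SE 0.33, interval -1.29 to 0.23, limma adjusted p = 0.513), and it was -0.58 within slide row 1 and -0.49 within slide row 2.

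Ccl5, a ligand of Ccr1 and Ccr3 that T cells and macrophages make, had the largest SD within groups of the 10 members. It had a processed signal of 2790, 1828, 223.4 and 54.23 in Psgl1-/- replicates 5 to 8, against 4181, 50.9, 5660 and 107.5 in Psgl1+/+ replicates 1 to 4. High and low arrays occurred in both groups. The scaled log2 mean was 8.73 ± 2.72 in Psgl1-/- cells and 9.46 ± 3.53 in Psgl1+/+ cells, and the difference of -0.73 (SE 1.98, limma adjusted p = 0.888) had an interval from -5.33 to 3.87. It was 1.55 within slide row 1 and -3.0 within slide row 2, and leaving out 1 array at a time gave values from -1.99 to 0.38. The list of 12 T and NK cell markers, all of them tested, averaged 7.34 to 7.85 in scaled log2 signal on Psgl1-/- arrays, against 7.9 to 8.1 on Psgl1+/+ arrays. Of the differences of these markers, 3 were positive and 9 negative with a median of -0.44. Over all tested genes the median was -0.33 and 31.0% were positive. The part of T and NK cells in the Ccl5 values was not tested.

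Ccl6 and Ccl9 are mouse chemokines that signal through Ccr1 and are made mainly by myeloid cells. Ccl6 had a processed signal of 14620, 840.1, 1931 and 4630 in Psgl1-/- cells, against 4571, 14370, 8421 and 185.8 in Psgl1+/+ cells. Psgl1+/+ replicate 4 was the lowest array, the highest of each group were nearly level, and the groups overlapped. The difference was -0.44 (SE 1.41, interval -3.71 to 2.84, limma adjusted p = 0.907), and -0.27 and -0.6 within slide rows 1 and 2. Leaving out 1 array at a time moved it between -1.71 and 0.21.

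Ccl9 measured 1448, 2001, 23.27 and 126.5 in processed signal in Psgl1-/- cells, against 33.3, 23.92, 180.6 and 52.77 in Psgl1+/+ cells. Psgl1-/- replicates 5 and 6 were high and replicates 7 and 8 lay among or below the Psgl1+/+ arrays. The scaled log2 mean was 8.02 ± 3.04 in Psgl1-/- cells and 5.94 ± 1.41 in Psgl1+/+ cells, with a difference of 2.07 (SE 1.5, interval -1.41 to 5.55, limma adjusted p = 0.562). The value on Psgl1-/- replicate 7, at 23.27, was not well above background, while Psgl1+/+ replicate 2, nearly as low at 23.92, was. Without Psgl1-/- replicate 7 the difference was 3.28. It was 1.31 without replicate 5 and 1.16 without replicate 6. Within slide row 1 it was 3.28 and within slide row 2 it was 0.86.

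Ccl24, or eotaxin-2, is a ligand of Ccr3 that attracts eosinophils and is made by alternatively activated macrophages. The processed signal was 61.86, 61.52, 49.66 and 57.16 in Psgl1-/- replicates 5 to 8, against 73.15, 62.92, 89.6 and 77.84 in Psgl1+/+ replicates 1 to 4. These signals are dim. Each was well above background but lay below the median of all gene spots on its array, and these medians ran from 100.1 to 160.2. All 4 Psgl1-/- arrays lay below all 4 Psgl1+/+ arrays before scaling, with replicate 2 of Psgl1+/+ close to the highest Psgl1-/- arrays, and also after scaling. The scaled log2 mean was 5.61 ± 0.15 in Psgl1-/- cells and 6.46 ± 0.4 in Psgl1+/+ cells (SD, n = 4 each). The difference of -0.85 (SE 0.27, interval -1.49 to -0.22) was lower in 4 of 4 Psgl1-/- arrays and had a limma unadjusted p of 0.0148 and an adjusted p of 0.458, so it did not pass. Ccl24 was the only member without overlap between the groups, where 11.5% of all tested genes had none, 10.8% with Psgl1-/- cells lower and 0.648% with Psgl1-/- cells higher. With cyclic loess, which brought the median of all genes to -0.01, the Ccl24 difference was -0.47 (SE 0.27, adjusted p = 0.873) and the groups overlapped. It was -0.78 within slide row 1 and -0.93 within slide row 2. The 6 eosinophil markers, all tested, averaged 6.16 to 7.76 in scaled log2 signal on Psgl1-/- arrays, against 6.99 to 7.57 on Psgl1+/+ arrays, and 1 positive and 5 negative differences were found among them. Of all tested genes, 31.0% had a positive difference. The part of the eosinophil markers in the Ccl24 values was not tested.

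**Figure D2:**
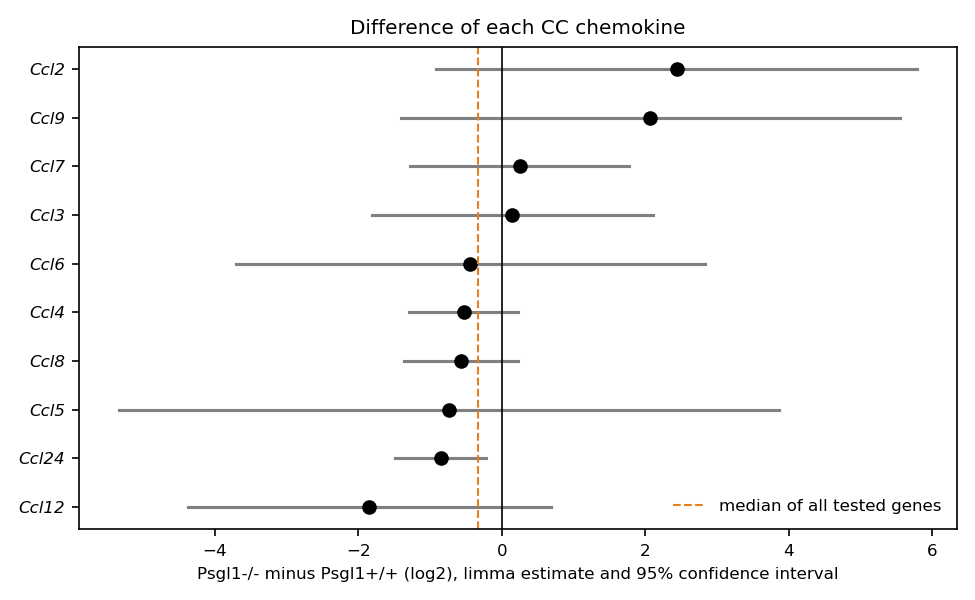
Difference of each CC chemokine, Psgl1-/- minus Psgl1+/+, on the scaled log2 signal (horizontal axis), with points for the limma estimate and lines for the 95% confidence interval over 4 against 4 arrays. The dashed line is the median of all tested genes (-0.33). Only the interval of Ccl24 leaves out 0, and the Ccl5 interval, from -5.33 to 3.87, is the widest.

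The members divided by how far they varied within a group. The pooled SD within groups was over 1 on the log2 scale for 6 of 10 members, where the median of all tested genes was 0.76. It was 3.15 for Ccl5, 2.37 for Ccl9, 2.28 for Ccl2, 2.23 for Ccl6, 1.71 for Ccl12 and 1.31 for Ccl3. It was 1.0 for Ccl7, where 61.3% of all tested genes had a smaller SD. At the other end it was 0.44 for Ccl8, 0.41 for Ccl4 and 0.3 for Ccl24. Of all tested genes, 96.3% had a smaller SD than Ccl5, against 12.2% with a smaller SD than Ccl24. Over all 8 arrays the scaled signal of Ccl2 spanned 232-fold, that of Ccl5 164-fold and that of Ccl9 82.5-fold, while Ccl4 spanned 2.04-fold. The intervals of the variable genes are correspondingly wide, and a difference of 4-fold in either direction lies inside the interval of 2 members, Ccl5 and Ccl6.

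**Figure D3:**
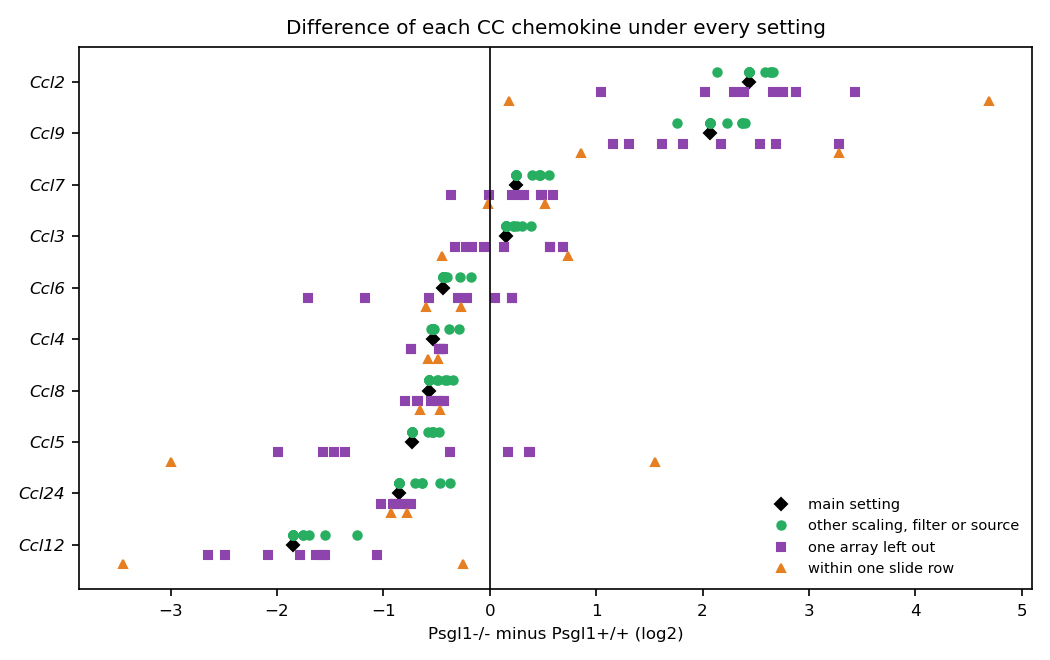
Difference of each CC chemokine, Psgl1-/- minus Psgl1+/+ on the log2 scale (horizontal axis), under the main setting (black diamonds), other scalings, filters or sources (green circles), with 1 array left out (purple squares) and within 1 slide row (orange triangles). Leaving out an array moved Ccl2, Ccl5 and Ccl9 farther than any other scaling did, and Ccl3, Ccl5, Ccl6 and Ccl7 lie on both sides of 0.

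The members did not vary together as a group over the 8 arrays. Of the 45 pairs, 25 had a positive Pearson's r and the median r was 0.02. In 2 pairs r reached an unadjusted p under 0.05 by exact permutation, and 0 pairs passed after Benjamini-Hochberg adjustment over the 45 pairs. Ccl8 and Ccl24 had r = 0.79 (exact permutation p = 0.027, adjusted p = 0.833) and Spearman's rho = 0.74, and r was 0.6 without the 2 arrays farthest from the median of Ccl8. Ccl4 and Ccl12 had r = 0.72 (exact permutation p = 0.037, adjusted p = 0.833) and rho = 0.71, and r was 0.64 without the 2 arrays farthest from the median of Ccl4. In that pair Psgl1-/- replicate 8 was the high array of its group for both genes. The Ccr2 ligands Ccl2 and Ccl7 had r = -0.12. Ccl3 and Ccl4 had r = -0.65 (exact permutation p = 0.1176) but rho = -0.19, and r was -0.38 without the 2 arrays farthest from the median of Ccl3. These arrays share 2 groups and 1 slide.

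**Figure D4:**
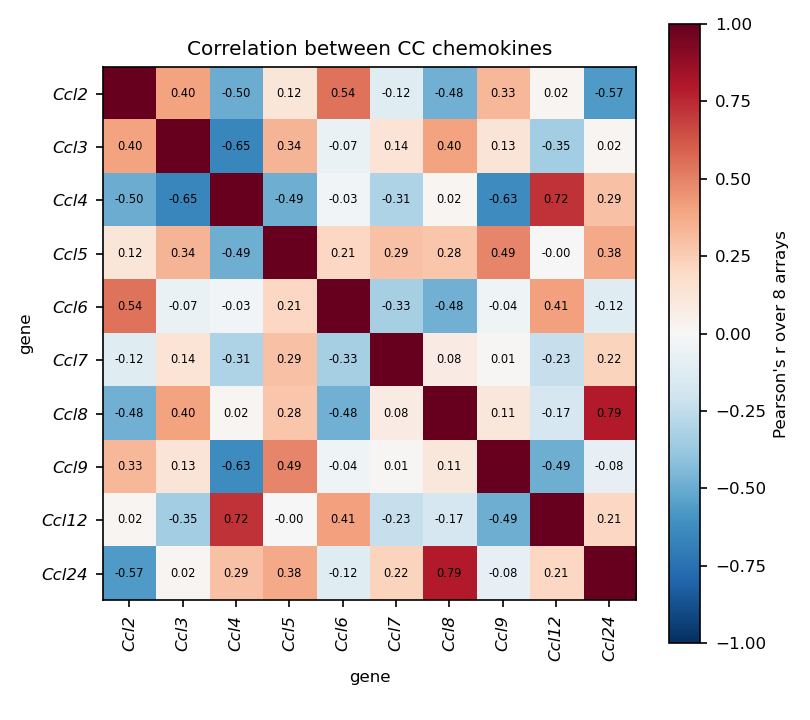
Pearson's r between each pair of CC chemokines over the 8 arrays, on the scaled log2 signal. Red is positive and blue negative on a scale from -1 to 1. The highest value is 0.79 for Ccl8 with Ccl24, and no block of genes with high values stands out.

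Among 21490 named genes well above background on all 8 arrays, those with a pattern most like each member were found by Pearson's r over the 8 arrays, given as a description. For Ccl24 they were Fam131b (r = 0.999) and Cldn18 (r = 0.99), and for Ccl8 A1bg (0.987) and Gm41 (0.983). For Ccl3 they were Fes (0.977) and Kif21b (0.974), for Ccl4 Galnt16 (0.972) and Mir7005 (0.965), and for Ccl7 Tor3a (0.965) and Cab39 (0.959). Ccl5 was most like Zfp600 (0.966) and Olr1 (0.96), and Ccl9 most like Cdca2 (0.954) and Ibsp (0.953). Ccl2 had Psma3 and Fam50a (both 0.942), Ccl6 Fam219b (0.946) and Olfr611 (0.921), and Ccl12 Vmn2r3 (0.944) and H13 (0.941).

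The receptors read here gave no call either. With limma, 0 of 9 CC chemokine receptors passed after adjustment over all tested genes, 0 had an unadjusted p under 0.05, and 2 differences were positive and 7 negative with a median of -0.46. Ccr2, the receptor of Ccl2, Ccl7 and Ccl12, had scaled log2 signals of 9.25, 9.92, 12.43 and 10.99 on Psgl1-/- replicates 5 to 8, against 7.63, 6.98, 12.12 and 12.06 on Psgl1+/+ replicates 1 to 4. Both groups spanned several log2 units and overlapped, with a difference of 0.95 (SE 1.39, limma adjusted p = 0.782). Ccr1, which binds Ccl3, Ccl5, Ccl6 and Ccl9, had a difference of -0.12 (SE 0.46, limma adjusted p = 0.92). Ccr3, the Ccl24 receptor, was well above background on 2 Psgl1-/- arrays and 3 Psgl1+/+ arrays, with a difference of -0.56 (SE 0.8, limma adjusted p = 0.774). Ccr10, a receptor of skin and mucosal chemokines, had a difference of -1.4 (SE 0.75, limma adjusted p = 0.479). Its scaled log2 signal was 10.11 to 10.92 on Psgl1-/- arrays, against 10.95 to 11.55 on Psgl1+/+ replicates 2 to 4 and 14.32 on Psgl1+/+ replicate 1. A single array thus makes much of that difference, and the groups are separated by a narrow margin. The groups did not overlap for Ccr10 and overlapped for the other 8 receptors, where 11.5% of all tested genes had no overlap. Ccr4 and Ccr7, receptors of T cells and dendritic cells, had differences of -1.0 and -0.62, and Ccr6, the Ccl20 receptor, of -0.46.

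**Figure D5:**
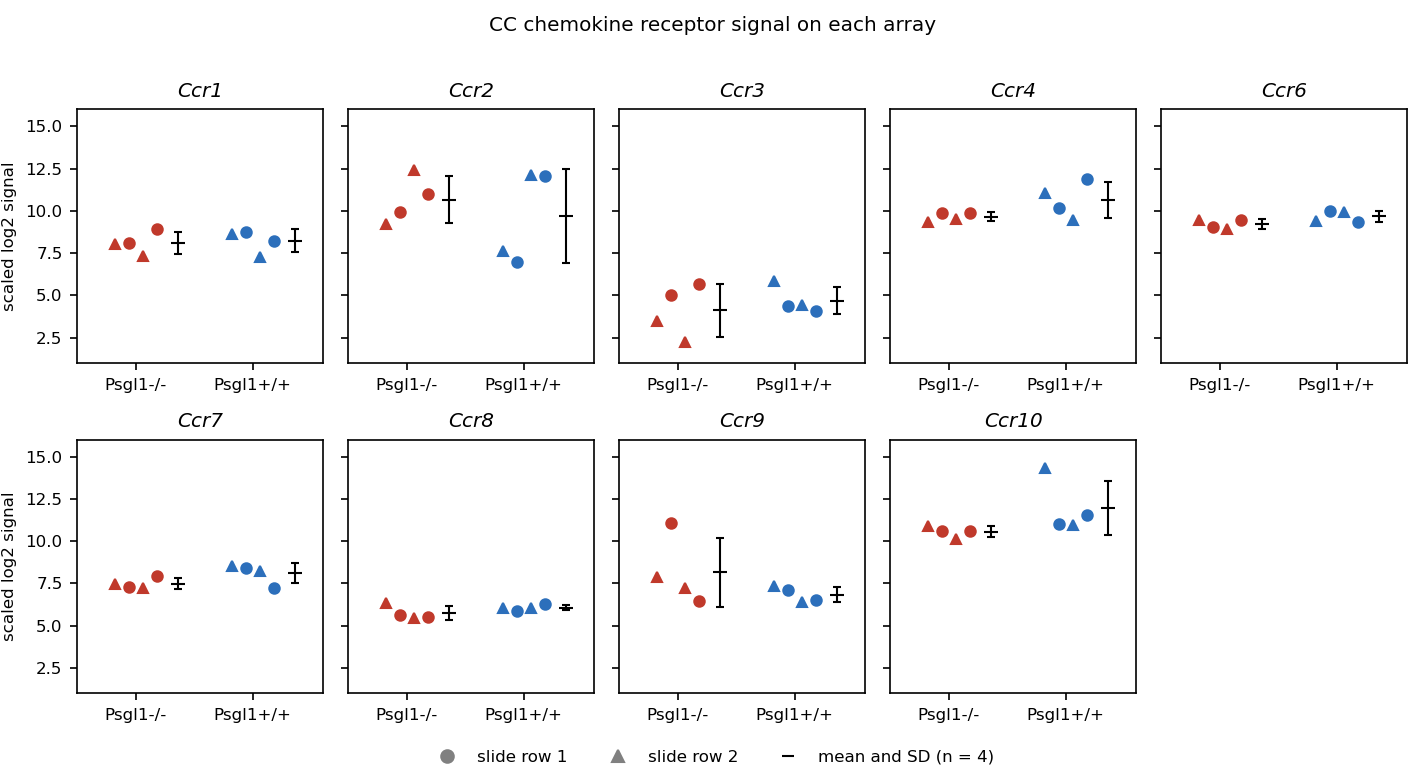
Scaled log2 signal of 9 CC chemokine receptors on each array (vertical axis), drawn as for the chemokines, with Psgl1-/- arrays in red left of Psgl1+/+ arrays in blue. Circles are slide row 1, triangles slide row 2, and the bar gives the mean and SD of 4 arrays. The groups overlap for 8 of the 9 receptors, and Ccr2, Ccr3, Ccr9 and Ccr10 spread over several log2 units.

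Among the other CC chemokines no gene passed. Of 11 listed, 10 were on the array and tested, 0 passed with limma after adjustment over all genes, 2 had an unadjusted p under 0.05, and 2 differences were positive and 8 negative with a median of -0.47, beside a median of -0.33 and 31.0% positive over all tested genes. With cyclic loess 4 were positive and 6 negative with a median of -0.11. Ccl1, a ligand of Ccr8, had a difference of -1.03 (SE 0.29, limma unadjusted p = 0.00832, adjusted p = 0.458), and Ccl20, the ligand of Ccr6, of -1.08 (SE 0.39, adjusted p = 0.458). Both lay lower in 4 of 4 Psgl1-/- arrays without overlap, as did 10.8% of all tested genes, and 9.2% of all tested genes were lower at an unadjusted p under 0.05. A second Ccl1 probe gave -0.78, and a second Ccl20 probe was not well above background on any array. Elsewhere in this list probes of the same gene could differ in sign, such as 0.08 and -3.02, both well above background on all 8 arrays. With every probe on its own, 3 differences of the list were positive and 11 negative. Ccl22 and Ccl26 had differences of -0.5 and -0.54. Of the atypical receptors, which bind chemokines without G protein signalling, 0 of 4 passed and all 4 differences were negative: Ackr1 at -0.52, Ackr2 at -0.27, Ackr4 at -0.16 and Ccrl2 at -0.55.

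Genes that act on chemokine transcripts and proteins were read from fixed lists, and 0 genes of any list passed after adjustment over all tested genes with limma. Of all tested genes, 10.8% had an unadjusted limma p under 0.05, 687 of them higher and 3904 lower in Psgl1-/- cells. The counts below are to be read against that share. Of 18 genes of NF-kB signalling and other inducers of chemokine transcription, 10 differences were positive and 8 negative (median 0.23), and 3 had an unadjusted p under 0.05. These were Tnfaip3, an inhibitor of NF-kB, at 2.4 (SE 0.59, limma adjusted p = 0.458), Ikbkg, a subunit of the kinase complex that activates NF-kB, at 3.63, and the NF-kB subunit Rel at -0.82. The immediate early gene Fos had a difference of 2.95 (limma unadjusted p = 0.0519). Of 7 factors that govern the decay of AU-rich mRNA, a class that includes many chemokine transcripts, 5 were positive and 2 negative (median 0.18), and 2 had an unadjusted p under 0.05. Hnrnpd had a difference of 5.86 (SE 1.34, limma unadjusted p = 0.00262, adjusted p = 0.458) and was well above background on 4 Psgl1-/- arrays and 2 Psgl1+/+ arrays. Zfp36l1 had a difference of 1.71 (SE 0.47, adjusted p = 0.458), Zc3h12a of -0.43 and Khsrp of -0.24.

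Of the IL-4 and IL-13 response genes, which accompany Ccl24 in alternatively activated macrophages, 5 of 10 differences were positive and 5 negative, with a median of 0.02. Il13ra1 was well above background on 3 Psgl1-/- arrays and 1 Psgl1+/+ array and had a difference of 4.04 (SE 2.86), which rests on values near background in both groups. Arg1, well above background on 4 Psgl1-/- arrays and 3 Psgl1+/+ arrays, had a difference of 0.96, Mrc1 had 1.12 and Irf4 -0.33, and 0 had an unadjusted p under 0.05. Of 8 proteases that cleave CC chemokines, 2 were positive and 6 negative (median -0.53), with Mmp12 at 2.5, Mmp13 at -0.72, Mmp14 at -1.4 and Dpp4 at -0.3, and again 0 had an unadjusted p under 0.05.

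Marker lists of cell types were read as a description. They cannot check the sorted identity, since 76.1 to 88.2% of all gene spots were well above background on these arrays. The 10 markers of the sorted myeloid cells were all tested and averaged 11.6 to 13.13 in scaled log2 signal on Psgl1-/- arrays, against 11.71 to 13.08 on Psgl1+/+ arrays, with Tyrobp, an adaptor of myeloid receptors, well above background on all 8. Markers of other cell types were also above background, among them Cd4 of T cells, Cd79a of B cells, Mpo of neutrophil precursors, Il5ra of eosinophils, Tpsb2 of mast cells, Snap25 of neurons, Slc1a2 of astrocytes, Flt1 of endothelium and Mag of oligodendrocytes, each on all 8 arrays. Snap25 averaged 15.85 on Psgl1-/- and 16.42 on Psgl1+/+ arrays, brighter than Tyrobp at 15.07 and 14.79. Over the 14 lists 0 markers passed after adjustment. Neuronal markers averaged 11.46 to 12.57 on Psgl1-/- arrays, against 11.8 to 12.84 on Psgl1+/+ arrays, and neutrophil markers 7.83 to 8.96, against 6.6 to 8.31. The part of such cells in the chemokine values was not tested.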

How the data were processed

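RNA from 8 samples was labelled with cyanine 3 after first-strand synthesis from random primers, per the labels' protocols, and hybridised to single-colour Agilent custom arrays. The deposited scanner files give each spot's processed signal as a linear intensity, background-corrected by Agilent Feature Extraction 11.5.1.1, per the file headers. The authors' deposited value table also holds intensity values, with identical sorted values in its 8 columns (median 132.9 each), and served as an alternative. Its scale and direction are otherwise not given in the sources used here.

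Of 60273 probes 67.1% were named, through accessions or symbols in a GRCm38.p6 table, while the headers name mm9. The log2 processed signal was set to a common 75th percentile, outlier spots were dropped, spots of a probe averaged, and each gene represented by its brightest probe, kept where at least 4 of 8 arrays had it well above background. Groups were compared with limma 3.58.1 (lmFit, eBayes) in R 4.3.3, two-sided, adjusted by Benjamini-Hochberg at 0.05, after the procedure was tested on simulated data. Tables and plots used the R package data.table (1.17.8), Python 3.11.15, pandas 2.3.3, numpy 2.4.6 and matplotlib 3.10.9. Alternatives were other scalings, normexp with an offset of 50, filters, probe rules, slide rows and leaving out each replicate. The number of arrays limits the precision. The members and lists were chosen with earlier results of these data known. The rule for named genes took all members, up to 4 genes of each pathway list by smallest unadjusted p, Ccr1, Ccr2 and Ccr3, the 2 genes most like each member and the marker with the highest mean of each cell type list. Some items are not reported here, and counts over lists leave them out.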

Additional observations from a re-analysis of the deposited data

Results flagged for a closer look

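Within the groups of 4 arrays, 12 values of the 110 groups looked at (55 genes) lay farther from the nearest other array than Dixon's 95% critical ratio for 4 values allows, and chance alone gives about 1 in 20. Among the chemokines, Ccl12 was 8.98 in scaled log2 signal on Psgl1-/- replicate 8, against 5.69 to 5.93 on the other Psgl1-/- arrays. Ccl4 was 9.75 on the same array, against 8.86 to 8.98 on the other Psgl1-/- arrays, and 9.04 on Psgl1+/+ replicate 3, against 9.87 to 9.89 on the other Psgl1+/+ arrays. Ccl22 was 7.85 on Psgl1+/+ replicate 1 and Ccl26 was 8.2 on Psgl1+/+ replicate 4, both below the rest of the group. Il13ra1 was 1.86 on Psgl1-/- replicate 5, against 10.39 to 11.6 on the other Psgl1-/- arrays, and 11.41 on Psgl1+/+ replicate 3, against 1.66 to 2.91 on the other Psgl1+/+ arrays, and its low values were not well above background. Arg1 was 5.55 on Psgl1-/- replicate 7, below the rest of the group, and Rel was 14.75 on Psgl1-/- replicate 6, above it. Cd4 was 11.95 on Psgl1-/- replicate 5 and 13.08 on Psgl1+/+ replicate 4, and Mag was 10.77 on Psgl1-/- replicate 5, each above the rest of its group.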

How the results depend on the processing

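In all 20 alternatives 0 of the members and 0 of the genes of the fixed lists passed, and the lowest adjusted p of a member was 0.415. The members' differences kept their sign in 184 of 199 values, and Ccl9 had no value under the filter on all 8 arrays. With 1 probe per member and both groups equally split over the slide rows, some alternatives could not change a difference. These were the filters, the probe rules and slide row as a block, so part of the 184 kept their sign by design. Ccl5 turned to 1.55 within slide row 1, and Ccl3 to -0.45 and Ccl7 to -0.02 within slide row 2. With 1 array left out, Ccl3 ran from -0.33 to 0.69, Ccl5 from -1.99 to 0.38, Ccl6 from -1.71 to 0.21 and Ccl7 from -0.36 to 0.59. Members without overlap, 1 in the main setting, numbered 0 with cyclic loess (4.09% of all tested genes), 4 within slide row 1 (44.9%), 5 within slide row 2 (39.4%) and 1 to 3 with 1 array left out (13.5 to 18.5%), against 11.5% in the main setting. Over the whole array 1 gene passed in the main setting, 4 with cyclic loess, 7 with the filter on all 8 arrays, 6 with the mean of all probes, 9 with every probe on its own, 2 with slide row as a block, 0 within slide row 1 (with 1059 higher and 956 lower genes under an unadjusted 0.05), 0 within slide row 2 (902 and 1040), and 0 to 10 with 1 array left out. The 0 came without Psgl1-/- replicate 7 (766 higher and 2021 lower) or Psgl1+/+ replicate 1 (605 and 2854). The split of genes under an unadjusted p of 0.05 was 687 higher and 3904 lower in the main setting, 905 and 1883 with quantile normalization, 884 and 1786 with array medians, 834 and 1973 with normexp, 918 and 1853 with the value table, and 1245 and 794 with cyclic loess. The cause of these changes was not tested. No paired analysis was possible because the groups share no replicate numbers.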
